A study of Homo sapiens with 8 samples.

Results

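The proteasome subunit genes were examined at their promoters in HCT8 cells, a human ileocecal adenocarcinoma line, after contact with bacterial membrane vesicles (MVs). Members were the protein-coding genes of chromosomes 1 to 22 (GENCODE 44 annotation of GRCh37, which is hg19) whose symbol starts with PSMA, PSMB, PSMC, PSMD, PSME, PSMF or PSMG followed by a digit, and the rule found 49 of 19229 genes. Of these, 47 encode parts, activators, inhibitors or assembly factors of the proteasome. The other 2 only share the start of the symbol: PSMC3IP, a cofactor of meiotic recombination, and PSME3IP1, a nuclear partner of PSME3. PSMD10 lies on chromosome X and fell outside the rule.

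Cells were treated for 5 h with MVs from *E. coli* K-12 MC1061, with MVs from *V. cholerae* C6706 or with buffer (mock). Each treatment gave 1 H3K4me3 ChIP library, which reads the histone mark of active promoters, and 1 FAIRE library, which reads nucleosome-free DNA. All groups are of the same cell line, and with 1 library per treatment and assay no difference has a replicate check, no test between treatments was run and every interval printed covers counting error only. The measurements are of cells in bulk, so a change in the share of cells that carry a mark and a change in its amount per cell cannot be told apart.

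The proteasome degrades proteins tagged with ubiquitin. Its core particle is a stack of rings in which alpha subunits form the gate and beta subunits carry the proteolytic sites, and its regulatory particle holds a ring of ATPases, which unfold substrates, and non-ATPase subunits, which receive and deubiquitinate them. Interferon gamma induces the beta subunits PSMB8, PSMB9 and PSMB10, which replace PSMB5, PSMB6 and PSMB7 in newly built cores. The resulting immunoproteasome, together with the activator cap of PSME1 and PSME2, alters the set of peptides made for MHC class I, and intestinal epithelium can express it during inflammation.

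The libraries differed in depth and in the share of tags that lay in called peaks. The H3K4me3 libraries held 10528314 tags with *E. coli* MVs, 13011839 with *V. cholerae* MVs and 3463875 with mock, of which 53.9%, 56.1% and 38.6% lay in peaks. The FAIRE libraries held 7888670, 12077180 and 14474665 tags in the same order, of which 37.3%, 13.9% and 7.12% lay in peaks. For each gene the normalized tag counts (NTC, tags per 10000000 tags of the library) were added up over the peaks that lay no more than 1000 bp from one of its annotated start sites. Dividing instead by the tags in all called peaks lowers each log2 ratio to mock by 0.48 (*E. coli* MVs) and 0.54 (*V. cholerae* MVs) in H3K4me3, and by 2.39 and 0.97 in FAIRE, so the ratios are read beside those of all genes. Of 9 epithelial and intestinal markers, 8 had an H3K4me3 peak in every library, and KRT20 had none. Of 7 markers of other cell types found in the annotation, CD14 had a peak in every library, VIM and COL1A1 had a weak one (9.22 to 17.1 NTC in the unit given above) with either MV preparation and none with mock, and the other 4, which mark leukocytes and liver, had none.

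The promoters of the 3 immunoproteasome genes, of one counterpart and of PSME1 are printed because the main contrast rests on them. They are reference sequences from RefSeq, placed on hg19 by exact match, 5′ to 3′ on the gene's strand, and end at or just before the start site. Capitals mark matches on either strand to CCAAT (the NF-Y box), GGGCGG (the GC box), TGACNNNGC (the core of the antioxidant response element, at which NFE2L1 drives proteasome genes), AAGATGG (YY1) or the interferon-stimulated response element.
PSMB8, chr6:32812457-32812612, minus strand: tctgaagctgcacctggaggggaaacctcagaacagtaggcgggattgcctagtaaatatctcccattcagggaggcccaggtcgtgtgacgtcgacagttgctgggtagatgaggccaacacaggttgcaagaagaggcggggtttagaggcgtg
PSMB9, chr6:32821719-32821968, plus strand: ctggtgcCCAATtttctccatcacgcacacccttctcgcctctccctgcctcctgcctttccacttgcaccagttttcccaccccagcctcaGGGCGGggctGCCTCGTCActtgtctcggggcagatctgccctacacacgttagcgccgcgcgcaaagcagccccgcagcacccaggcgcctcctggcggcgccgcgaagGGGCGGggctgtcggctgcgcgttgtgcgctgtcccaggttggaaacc
PSMB10, chr16:67970754-67971003, minus strand: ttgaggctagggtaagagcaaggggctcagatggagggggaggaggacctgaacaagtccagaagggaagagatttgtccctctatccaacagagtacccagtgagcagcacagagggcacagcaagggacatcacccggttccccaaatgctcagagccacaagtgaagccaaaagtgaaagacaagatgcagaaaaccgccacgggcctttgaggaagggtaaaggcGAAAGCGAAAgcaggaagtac
PSMB5, chr14:23504440-23504679, minus strand: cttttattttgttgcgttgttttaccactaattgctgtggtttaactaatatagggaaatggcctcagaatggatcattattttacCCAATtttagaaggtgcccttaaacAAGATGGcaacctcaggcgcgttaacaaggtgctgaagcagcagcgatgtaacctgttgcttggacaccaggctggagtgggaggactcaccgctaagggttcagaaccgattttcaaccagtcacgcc
PSME1, chr14:24605153-24605371, plus strand: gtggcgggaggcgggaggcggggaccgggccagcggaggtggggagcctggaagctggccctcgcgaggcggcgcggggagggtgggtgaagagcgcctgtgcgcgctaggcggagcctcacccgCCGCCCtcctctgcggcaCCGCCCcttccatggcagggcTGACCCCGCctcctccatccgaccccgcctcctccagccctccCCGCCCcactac

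None of the motifs searched lay in the stretch printed for PSMB8. The PSMB10 stretch held the interferon-stimulated response element close to its end. The base composition of the stretches differed, with 55.8% GC for PSMB8, 67.2% for PSMB9, 53.6% for PSMB10, 45.4% for PSMB5 and 77.2% for PSME1.

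The motifs were searched in 300 bases around the start (250 before and 50 after) on both strands. Of the 49 members, 43 matched a promoter in the RefSeq table. PSMD4, PSMB6, PSMA7, PSMB1, PSMG3 and PSMB7 did not. The interferon-stimulated response element was found in 6 of the 43 (14%), against 3.18% of all 14591 promoters. Those 6 were PSMB10, PSME1, PSME2, PSMA4, PSMB4 and PSMG4. The match of PSME1 lay outside the stretch printed above. CCGGAA, the core of ETS sites, was found in 19 members (44.2%, against 23.3% of all promoters), mostly genes of the regulatory particle. TGACNNNGC was found in 13 (30.2%, against 14.2%), AAGATGG in 8 (18.6%, against 6.35%), CCAAT in 20 (46.5%, against 36.3%) and GGGCGG in 30 (69.8%, against 59.7%). The shares of TATAAA, the TATA box, in 5 members (11.6%, against 9.68%) and of TGCGCA, the NRF1 core, in 6 (14%, against 10.6%) were close to those of all promoters. These matches are descriptions of the reference letters and not sites shown to be bound.

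H3K4me3 marked nearly the whole family in every library. A peak in all 3 libraries was found at 47 of 49 members (95.9%), against 60.9% of all genes. The exceptions had no peak in any H3K4me3 library: PSMA8, the testis form of an alpha subunit, and PSMB11, the catalytic subunit of the thymus. The marked members had more tags than genes in general, with a median of 649 NTC with *E. coli* MVs, 621 NTC with *V. cholerae* MVs and 517 NTC with mock, against 463.5, 496.5 and 315 NTC over the 11713 genes with a peak in all 3 libraries. Per 1000 bp of peak, the members' medians were 203, 204 and 176 NTC and those of all genes 157, 169 and 126 NTC. In 18 of the 47 members the peaks also lay near a start site of another protein-coding gene, and such a peak was counted for each gene.

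The proteasome genes stood below the general shift in H3K4me3 between the MV libraries and mock. With *E. coli* MVs their median log2 ratio to mock was 0.36, against 0.52 over all genes, and with *V. cholerae* MVs it was 0.32, against 0.64. Scaled to the tags in peaks, the members' medians turn negative, to -0.13 and -0.22, while their distance to all genes stays as it is. With *E. coli* MVs, 8 of 47 members were at least 1.5-fold higher than with mock, against 42.6% of all genes, and none was 1.5-fold lower, against 0.359%. With *V. cholerae* MVs, 10 of 47 were at least 1.5-fold higher, against 53.5% of all genes, and none was 1.5-fold lower, against 0.563%. The ratio lay above 0 by more than counting error at 33 members with *E. coli* MVs, against 75.3% of all genes, and at 29 with *V. cholerae* MVs, against 75.9%.

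**Figure D1:**
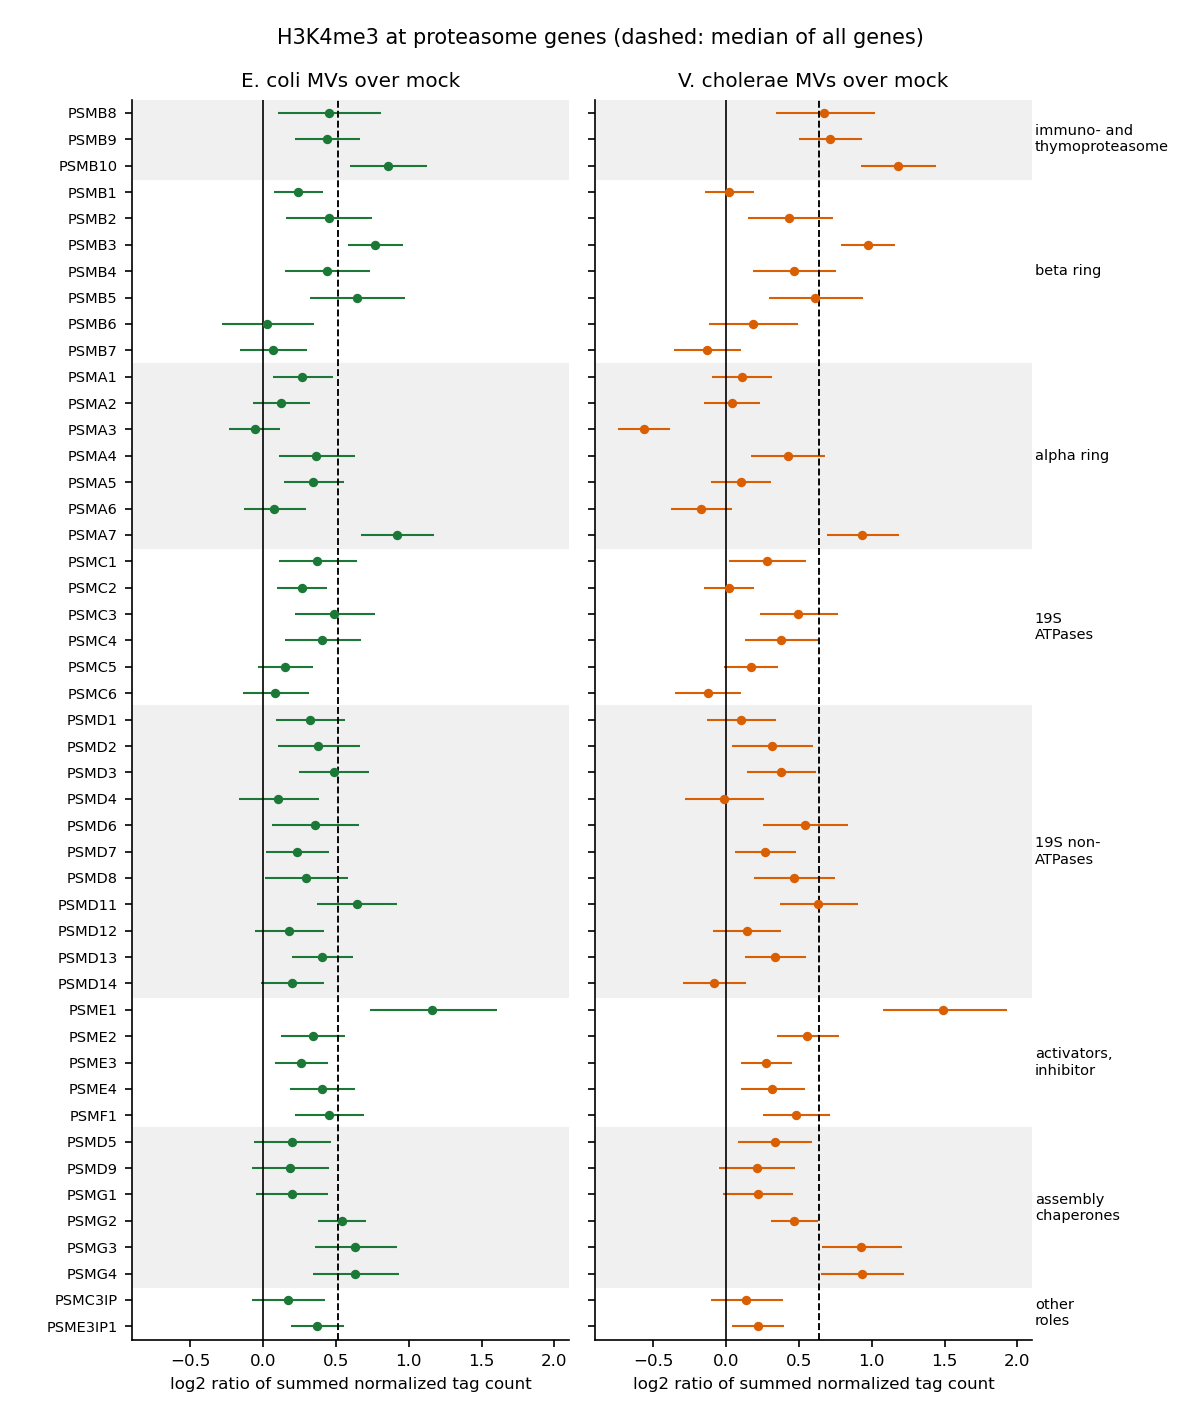
Log2 ratio of the summed H3K4me3 normalized tag count for 47 proteasome genes, *E. coli* MVs over mock on the left and *V. cholerae* MVs over mock on the right, with points for genes, bars for the 95% interval of counting error, shading for role groups and a dashed line at the median of all genes (0.52 and 0.64). Most points lie left of the dashed line, PSME1 and PSMB10 lie right of it in both panels and PSMA3 is lowest in both, and all ratios would shift left by 0.48 and 0.54 if scaled to tags in peaks, which turns the medians of the members negative.

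PSMB10, which replaces PSMB7 at the trypsin-like site, stood out among the immunoproteasome genes. Its H3K4me3 peaks held 732 NTC with *E. coli* MVs, 916 NTC with *V. cholerae* MVs and 404 NTC with mock, and none of the 95% Poisson intervals of these levels overlapped. A PSMB10 peak also lay near a start site of another protein-coding gene. The log2 ratio to mock was 0.86 with *E. coli* MVs (95% interval 0.60 to 1.13) and 1.18 (0.93 to 1.44) with *V. cholerae* MVs. These were the third and the second highest of 47 members, above 78.3% and 80.4% of all genes, and stayed positive under the scaling to tags in peaks (0.37 and 0.64). PSMB7 itself held 620.2 NTC with *E. coli* MVs, 541 NTC with *V. cholerae* MVs and 592 NTC with mock, levels whose 95% intervals all overlapped. Its log2 ratios to mock were 0.07 (-0.16 to 0.30) and -0.13 (-0.36 to 0.10).

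PSMB8, the replacement for the chymotrypsin-like subunit PSMB5, held 335 NTC with *E. coli* MVs, 391 NTC with *V. cholerae* MVs and 245 NTC with mock. Its log2 ratios to mock were 0.45 (0.10 to 0.81) and 0.67 (0.34 to 1.02). PSMB5 held 433 NTC with *E. coli* MVs, 423 NTC with *V. cholerae* MVs and 277 NTC with mock, with log2 ratios to mock of 0.64 (0.32 to 0.98) and 0.61 (0.29 to 0.94). The intervals of the MV levels overlapped each other in both genes, and in PSMB8 the interval with *E. coli* MVs also overlapped that with mock.

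PSMB9, the replacement for the caspase-like subunit PSMB6, lies head to head with TAP1, the transporter that carries peptides into the endoplasmic reticulum. Its sum was 816 NTC with *E. coli* MVs, 984.5 NTC with *V. cholerae* MVs and 600.5 NTC with mock, but it includes the peak of PSMB8, where the annotation places an alternative start of PSMB9. The peak shared with TAP1 alone held 481 NTC with *E. coli* MVs, 593 NTC with *V. cholerae* MVs and 355 NTC with mock, with log2 ratios to mock of 0.44 (0.15 to 0.73) and 0.74 (0.46 to 1.03). PSMB6 held 330 NTC with *E. coli* MVs, 367 NTC with *V. cholerae* MVs and 323 NTC with mock, and its log2 ratios to mock, 0.03 (-0.28 to 0.35) and 0.18 (-0.12 to 0.49), were within counting error of 0.

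The 3 pairs were set against each other as differences of log2 ratios, immunoproteasome gene minus counterpart, which do not depend on the scaling of the libraries. PSMB10 minus PSMB7 was 0.79 (0.45 to 1.13) for *E. coli* MVs over mock and 1.31 (0.97 to 1.65) for *V. cholerae* MVs over mock. For PSMB9, taken at the peak shared with TAP1, minus PSMB6 the differences were 0.41 (-0.01 to 0.83) and 0.56 (0.16 to 0.96). PSMB8 minus PSMB5 gave -0.19 (-0.66 to 0.27) and 0.06 (-0.39 to 0.52), so that pair could not be told apart at this depth. As medians, with the PSMB8 peak counted for PSMB9 as well, the 3 immunoproteasome genes had log2 ratios to mock of 0.45 and 0.71, the 3 counterparts 0.07 and 0.18, and the 44 members other than PSMB8, PSMB9 and PSMB10 0.34 and 0.30.

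**Figure D2:**
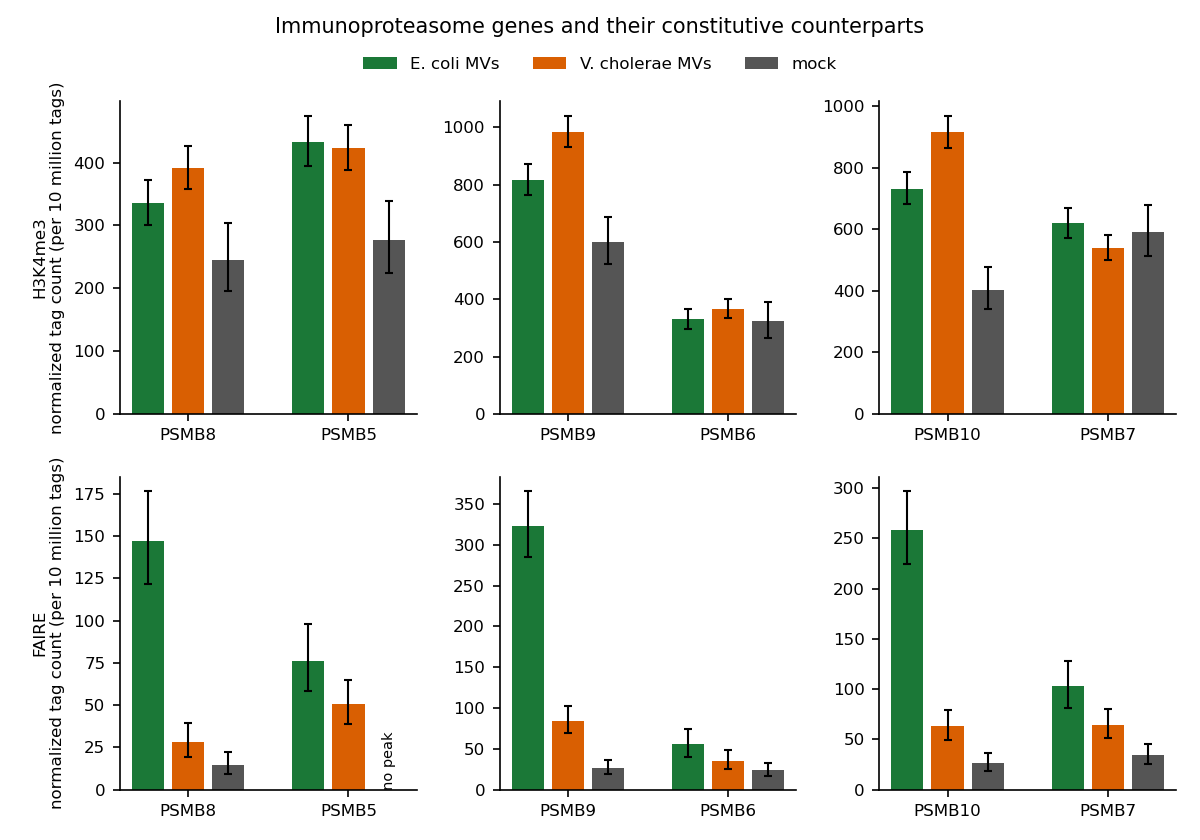
Summed normalized tag count (per 10000000 tags) of each immunoproteasome gene beside its constitutive counterpart in H3K4me3 (upper row) and FAIRE (lower row), with a bar for each library in the order *E. coli* MVs, *V. cholerae* MVs and mock and error bars for the 95% Poisson interval. PSMB10 has 732, 916 and 404 NTC in H3K4me3 while PSMB7 has 620.2, 541 and 592 NTC, and in FAIRE all genes shown are highest with *E. coli* MVs, although PSMB6 and PSMB7 would be highest with mock if scaled to tags in peaks.

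Base composition moved with these ratios. Over the mock H3K4me3 peaks of a gene, GC content had a median of 50.2% in the 47 members, against 54.9% over all genes, and when all genes were divided by GC content into 4 bins of equal size, the lowest bin held 19 members, the next 17, the third 9 and the highest 2. Across the 47 members the Spearman correlation of GC content with the log2 ratio was 0.62 for *E. coli* MVs over mock, 0.83 for *V. cholerae* MVs over mock and 0.81 for *V. cholerae* MVs over *E. coli* MVs, and across the 11713 genes it was 0.72, 0.83 and 0.75. These correlations are across genes of the same libraries, which share depth and mock values, and describe those libraries only. PSMB8 (58.1%), PSMB9 (59.8%) and PSMB10 (60.5%) had more GC than PSMB5 (51.4%), PSMB6 (53.7%) and PSMB7 (42.5%).

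Set beside genes of their own bin by GC content, the members were close to the rest. In the lowest bin (up to 49.9% GC) the members had median log2 ratios to mock of 0.24 with *E. coli* MVs, and of 0.10 with *V. cholerae* MVs, against 0.23 and 0.13 over all genes of that bin. In the next bin the members had 0.38 and 0.34, against 0.41 and 0.46. In the third bin (54.9% to 60.6%) they had 0.49 and 0.71, against 0.61 and 0.79, and the highest bin held only PSMA7 and PSME1. Over all bins, 21 of 47 members lay above the median of their bin with *E. coli* MVs and 18 of 47 with *V. cholerae* MVs. PSMB8 and PSMB9, the latter with the PSMB8 peak included, lay below the median of theirs in both comparisons, by 0.16 and 0.17 with *E. coli* MVs and by 0.12 and 0.08 with *V. cholerae* MVs, whereas PSMB10 lay above it by 0.25 and 0.39. However, PSMB10 (60.5% GC) lay at the upper edge of that bin, and its ratios (0.86 and 1.18) were below the medians of the highest bin (0.95 and 1.29).

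**Figure D3:**
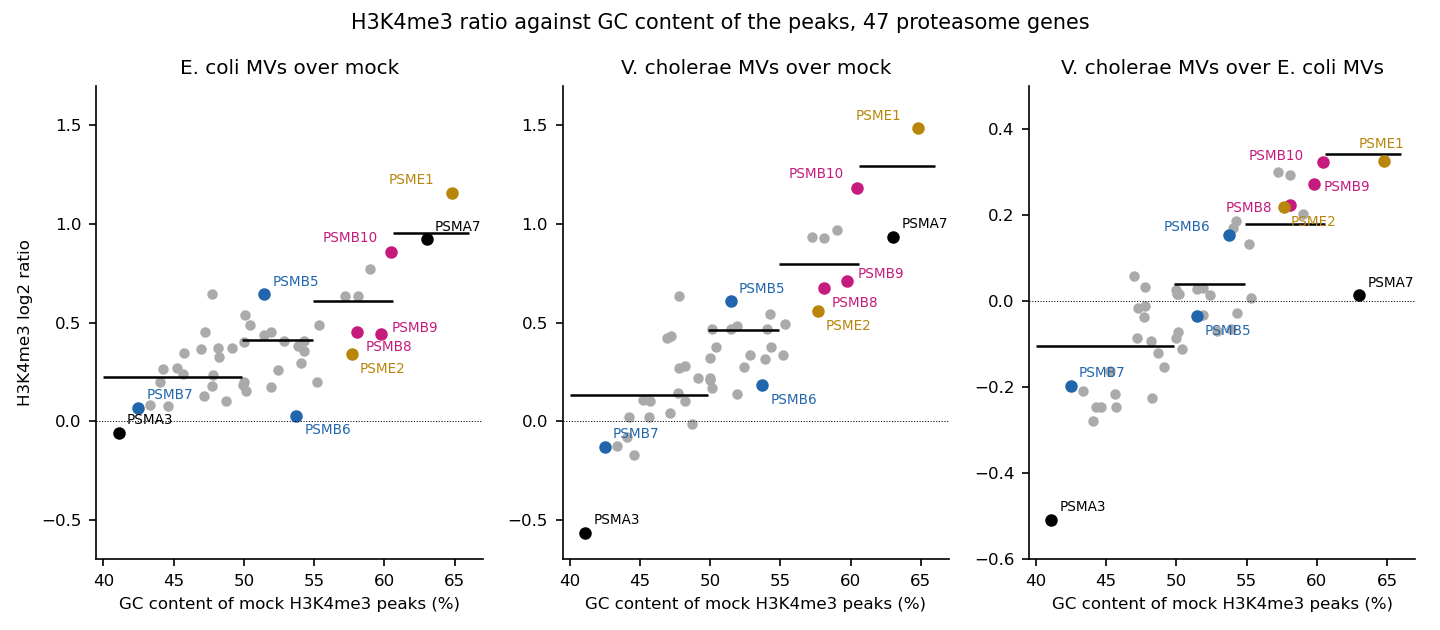
H3K4me3 log2 ratio of 47 proteasome genes against the GC content of their mock H3K4me3 peaks, for *E. coli* MVs over mock, *V. cholerae* MVs over mock and *V. cholerae* MVs over *E. coli* MVs (own vertical scale), with points for genes, immunoproteasome genes in magenta, counterparts in blue, PSME1 and PSME2 in ochre, PSMA3 and PSMA7 in black and horizontal lines at the median of all genes in each bin by GC content. The points climb with GC content along the lines (Spearman 0.62, 0.83 and 0.81), and scaling to tags in peaks would shift every point down by 0.48, 0.54 and 0.06, turning many ratios to mock negative.

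Of the activators and the inhibitor, PSME1 had the highest H3K4me3 ratio of all members in every comparison. PSME1 held 335 NTC with *E. coli* MVs, 420.4 NTC with *V. cholerae* MVs and 150.1 NTC with mock, the lowest mock level of the 47 members. Its log2 ratios to mock, 1.16 (0.74 to 1.61) and 1.49 (1.07 to 1.93), exceeded those of 90.6% and 89.8% of all genes. Its peaks also had the highest GC content of the members (64.8%), and the median of the highest GC bin was 0.95 and 1.29.

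PSME2, its partner in the cap, held 786 NTC with *E. coli* MVs, 914 NTC with *V. cholerae* MVs and 621 NTC with mock, with log2 ratios to mock of 0.34 (0.12 to 0.56) and 0.56 (0.35 to 0.77). PSME3, the nuclear activator, held 1128 NTC with *E. coli* MVs, 1140 NTC with *V. cholerae* MVs and 941 NTC with mock (log2 ratios 0.26 and 0.28). Both lay below the median of all genes, as did PSME4 and PSMF1. PSME4, an activator described in spermatids and in DNA repair, held 794 NTC with *E. coli* MVs, 748.5 NTC with *V. cholerae* MVs and 600.5 NTC with mock (0.40 and 0.32). The inhibitor gene PSMF1 held 726 NTC with *E. coli* MVs, 741 NTC with *V. cholerae* MVs and 531 NTC with mock (0.45 and 0.48). In each of these genes the ratio to mock lay above 0 by more than counting error, as at 33 and 29 of the 47 members.

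In the alpha ring the ratios ran from the lowest of the family to nearly the highest. PSMA3 held 993 NTC with *E. coli* MVs, 698 NTC with *V. cholerae* MVs and 1034 NTC with mock. With *E. coli* MVs its log2 ratio to mock was -0.06 (-0.23 to 0.12). With *V. cholerae* MVs it was -0.57 (-0.74 to -0.39), the only member below mock by more than counting error in that comparison, against 1.91% of all genes. PSMA3 also had the lowest GC content of the members (41.1%), and with *V. cholerae* MVs it lay 0.70 below the median of its GC bin on the log2 scale. PSMA6 followed with 0.08 and -0.17. At the other end, PSMA7 held 859 NTC with *E. coli* MVs, 867 NTC with *V. cholerae* MVs and 453 NTC with mock (0.92 and 0.94), at a GC content of 63.0% and in a peak shared with SS18L1, and PSMA4 followed at 0.37 and 0.42. The medians of the 7 alpha subunit genes with a peak were 0.27 and 0.10.

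Among the 7 genes of the constitutive beta ring the median log2 ratio to mock was 0.44 with *E. coli* MVs, whereas *V. cholerae* MVs gave 0.43. PSMB3, a structural subunit without a proteolytic site, was highest, with 1363 NTC with *E. coli* MVs, 1568 NTC with *V. cholerae* MVs and 799.7 NTC with mock (log2 ratios 0.77 and 0.97), in a peak shared with PCGF2. PSMB6, PSMB7 and PSMB1 (0.24 and 0.02) were lowest.

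The genes of the regulatory particle spanned a narrower range than those of the alpha ring. The 6 ATPase genes had medians of 0.32 with *E. coli* MVs, and of 0.22 with *V. cholerae* MVs, none reached 1.5-fold in either comparison, and PSMC3 (0.49 and 0.49) and PSMC4 (0.41 and 0.38) were highest. PSMC6 (0.08 and -0.13), PSMC5 (0.15 and 0.17) and PSMC2 (0.27 and 0.02) were at the low end. The 11 non-ATPase genes had medians of 0.33 and 0.31. PSMD11, a lid subunit, was the only one at 1.5-fold or more (0.64 and 0.63), followed by PSMD3 with *E. coli* MVs (0.49) and PSMD6 with *V. cholerae* MVs (0.54), both of the lid. The lowest were PSMD4, a receptor for ubiquitin (0.10 and -0.02), PSMD12 with *E. coli* MVs (0.18) and PSMD14, the deubiquitinating subunit, with *V. cholerae* MVs (-0.08).

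The 6 assembly chaperones had medians of 0.37 and 0.40. PSMG3 and PSMG4, which act as a pair on the alpha ring, had log2 ratios of 0.63 each with *E. coli* MVs and 0.93 each with *V. cholerae* MVs. PSMG3 held 569 NTC with *E. coli* MVs, 697 NTC with *V. cholerae* MVs and 367 NTC with mock, and PSMG4 held 533, 656 and 344 NTC in the same order. PSMG1, of the other pair on that ring, had 0.20 and 0.22, and its partner PSMG2 0.54 and 0.47. PSMD9 (0.18 and 0.21) and PSMD5 (0.20 and 0.33) are chaperones of the ATPase ring. The 2 genes that are not of the proteasome, PSMC3IP (0.17 and 0.14) and PSME3IP1 (0.37 and 0.22), lay within the range of the family.

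Between the MV preparations the H3K4me3 differences were small. The median log2 ratio of *V. cholerae* MVs over *E. coli* MVs was -0.02 over the 47 members, against 0.11 over all genes, and no member reached 1.5-fold in either direction, against 4.26% of all genes higher and 0.615% lower. By more than counting error, 9 members were higher with *V. cholerae* MVs, against 37.6% of all genes, and 11 were lower, against 9.83%. PSMB8 (0.22, 0.02 to 0.42), PSMB9 (0.27, 0.15 to 0.40) and PSMB10 (0.32, 0.19 to 0.46) were among the 9, as were PSME1 (0.33, 0.13 to 0.52) and PSME2 (0.22, 0.09 to 0.35), while the lowest was PSMA3 (-0.51, -0.64 to -0.38). The PSMB9 value includes the peak of PSMB8, and at the peak shared with TAP1 alone it was 0.30 (0.14 to 0.47). PSMB10 minus PSMB7 was 0.52 (0.32 to 0.72), and the intervals of PSMB8 minus PSMB5 (0.26, -0.01 to 0.52) and of PSMB9 minus PSMB6 (0.15, -0.11 to 0.41) included 0. The 3 immunoproteasome genes lay 0.04, 0.09 and 0.14 above the median of their GC bin (0.18). In that bin 7 of 9 members lay above the median, among them PSMG4 by 0.12 and PSMG3 by 0.11. Over all bins 17 of 47 did. Per 1000 bp of peak, the ratio of PSMB8 turned to -0.02, since its peak was wider with *V. cholerae* MVs (2298 bp) than with *E. coli* MVs (1941 bp).

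Most H3K4me3 peaks of the members were wider with MVs than with mock, as over all genes. The peaks of a member covered more bases than with mock at 42 of 47 members with *E. coli* MVs and at 40 of 47 with *V. cholerae* MVs, against 87.5% and 86.3% of all genes, with medians of 3316 bp, 3248 bp and, for mock, 2940 bp. Per 1000 bp the members' median log2 ratios to mock were 0.14 and 0.16, against 0.24 and 0.33 over all genes. PSMB10 kept 0.72 and 0.89 and PSME1 0.66 and 1.12, whereas PSMB6 had -0.43 and -0.47 and PSMB7 -0.15 and -0.65. PSMB8 had 0.14 and 0.12, below PSMB5 (0.36 and 0.24). PSMB9, its PSMB8 peak included, had 0.23 and 0.29, and both PSMB8 and PSMB9 lay below the medians of all genes. Peak calling in the mock library drew on 3463875 tags, and the part of this depth in the widths was not tested.

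In FAIRE, unlike H3K4me3, many members had a called peak only in the MV libraries. A FAIRE peak was found at 48 of 49 members with *E. coli* MVs, at 47 with *V. cholerae* MVs and at 24 with mock, against 79.3%, 63.8% and 43.2% of all genes. A peak in all 3 libraries was found at 24 of 49 members (49.0%, against 35.8% of all genes), and 22 had one with both MV preparations and not with mock (44.9%, against 25.7% of all genes). These were 22 of the 46 members with a peak in both MV libraries, beside 4951 of the 11834 genes with such peaks. PSMA7 and PSMC1 had a peak only with *E. coli* MVs, and PSMA8 only with *V. cholerae* MVs, of 9.11 NTC. The mock library was the deepest, but 7.12% of its tags lay in peaks.

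Detection with mock is given by role group, beside 43.2% of all genes and with no test of a difference. PSMB8, PSMB9, PSMB10 and PSMB11 had a mock peak, and that of PSMB8 was also counted for PSMB9. Of the alpha ring 1 of 8 genes did (PSMA5), of the constitutive beta ring 2 of 7 (PSMB6 and PSMB7), of the ATPases 3 of 6, of the non-ATPases 6 of 11, of the activators and the inhibitor 3 of 5 and of the chaperones 4 of 6. The 24 members with a peak with *E. coli* MVs and none with mock had 19 to 267.5 NTC with *E. coli* MVs, with a median of 82.4 NTC, and the weakest FAIRE peak called with mock held 6.22 NTC. Since the lists hold called peaks only, no fold is given for these genes.

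**Figure D4:**
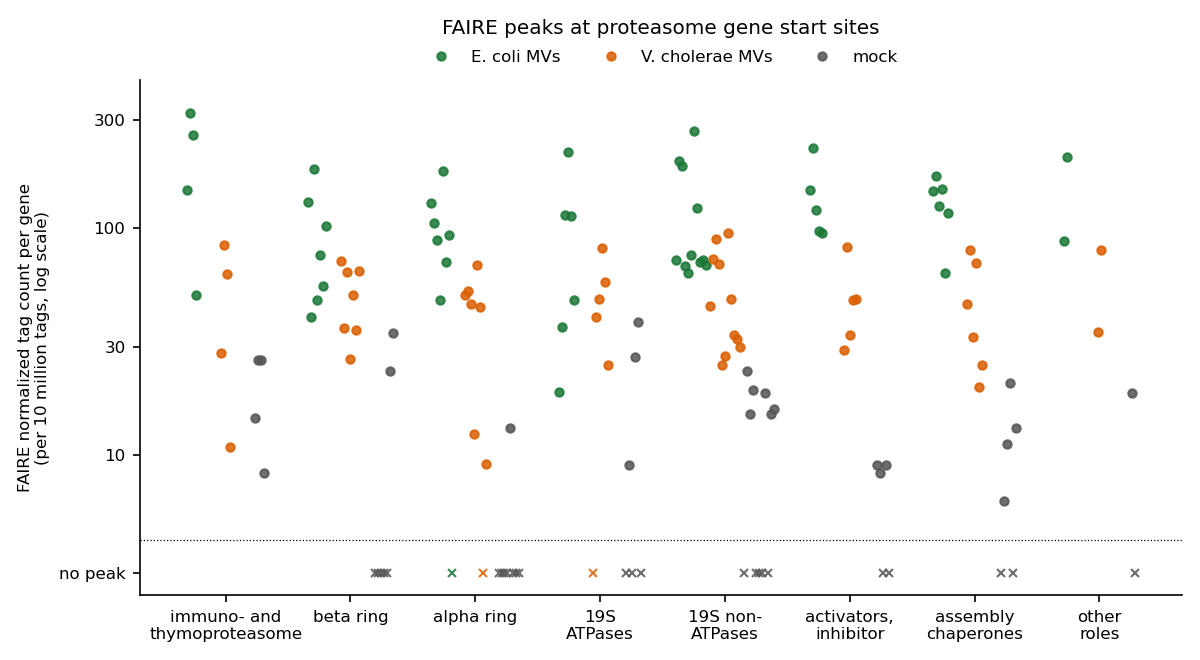
Summed FAIRE normalized tag count (per 10000000 tags, log scale) of each of the 49 members by role group, with points coloured by library in the order *E. coli* MVs, *V. cholerae* MVs and mock and crosses for genes with no called peak. The highest point of every role group is of *E. coli* MVs, crosses are most frequent with mock, where 25 members had no peak, and scaled to tags in peaks the level of *V. cholerae* MVs would no longer lie below that of *E. coli* MVs in the median (0.09).

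Where all libraries had a peak, FAIRE ratios were large and general. The median log2 ratio of the 24 members was 3.04 for *E. coli* MVs over mock, against 3.15 over 6883 genes, and 1.59 for *V. cholerae* MVs over mock, against 1.40. All 24 were at least 1.5-fold higher with *E. coli* MVs, against 98.2% of all genes, and 22 with *V. cholerae* MVs, against 75.9%. None was 1.5-fold lower in either comparison, against 0.218% and 4.58% of all genes. Scaled to the tags in peaks the medians become 0.65 and 0.63. At 5 of the 24 members in each comparison the peak with mock shared no base with that of the MV library, namely PSME2 and PSME4 in both, PSMB6, PSMC5 and PSMD4 with *E. coli* MVs and PSME1, PSMD9 and PSMG4 with *V. cholerae* MVs, so those ratios compare different places of the gene. Over the 19 others the medians were 2.72 and 1.2.

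Over all genes with a FAIRE peak in every library the median level was 153 NTC with *E. coli* MVs, 46.4 NTC with *V. cholerae* MVs and 16.6 NTC with mock. Of the immunoproteasome genes PSMB9 held 323 NTC with *E. coli* MVs, 84.5 NTC with *V. cholerae* MVs and 26.2 NTC with mock, and its peak shared with TAP1 alone 176, 56.3 and 11.7 NTC. PSMB10 held 259 NTC with *E. coli* MVs, 62.9 NTC with *V. cholerae* MVs and 26.3 NTC with mock, and PSMB8 147, 28.2 and 14.5 NTC. At PSMB10 the FAIRE peak with *E. coli* MVs reached the 300 bases searched for motifs, whereas those with *V. cholerae* MVs and with mock lay beside them. The log2 ratios to mock were 3.34 for PSMB8, 3.62 for PSMB9 and 3.30 for PSMB10 with *E. coli* MVs, above 57.9%, 67.4% and 56.2% of all genes. With *V. cholerae* MVs they were 0.96 (0.13 to 1.81), 1.69 (1.14 to 2.26) and 1.26 (0.68 to 1.86), above 34.2%, 60.6% and 44.6%. Scaled to the tags in peaks, the ratio of PSMB8 with *V. cholerae* MVs turned to -0.01.

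The counterparts had lower summed FAIRE levels with *E. coli* MVs than the immunoproteasome genes. Per 1000 bp of peak, PSMB6 (80.5 NTC) was above PSMB8 (68.6), PSMB9 (71.7) and PSMB10 (74.2), while PSMB7 (59.5) and PSMB5 (53.3) were below. PSMB7 held 103 NTC with *E. coli* MVs, 64.6 NTC with *V. cholerae* MVs and 34.5 NTC with mock. PSMB6 held 55.8, 35.6 and 23.5 NTC, the mock peak lying downstream of the start. Over overlapping peaks only, the log2 ratio of PSMB6 with *V. cholerae* MVs to mock turned from 0.60 to -1.37 (-2.50 to -0.35). PSMB5 held 76.1 NTC with *E. coli* MVs and 50.5 NTC with *V. cholerae* MVs and had no peak with mock. The log2 ratio of PSMB7 to mock was 1.57 with *E. coli* MVs, whereas *V. cholerae* MVs gave 0.90, and its ratio with *E. coli* MVs exceeded that of 8.27% of all genes. Scaled to the tags in peaks, both PSMB7 ratios turn negative, to -0.82 and -0.06. PSMB10 minus PSMB7 was 1.73 (1.02 to 2.44) for *E. coli* MVs over mock and 0.36 (-0.40 to 1.12) for *V. cholerae* MVs over mock. With peaks within 500 bp only, which drops the second mock peak of PSMB10, the summed ratios of PSMB10 were 4.02 and 1.99.

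FAIRE levels with *V. cholerae* MVs were lower than with *E. coli* MVs at nearly all members, although scaling to the tags in peaks reverses the median of the 24 members to 0.09. Their median log2 ratio was -1.33, against -1.65 over all genes, and 22 of 24 were at least 1.5-fold lower, against 93% of all genes, while none was 1.5-fold higher, against 0.61%. Over the 46 members with a peak in both MV libraries the median was -1.28 and 43 were at least 1.5-fold lower, against -1.60 and 91.7% over the 11834 genes with such peaks. PSMB8 (-2.38) was the lowest of the 46, PSMB10 (-2.04) was the fifth from the low end, and PSME1 (-2.34), PSMB11 (-2.24) and PSMG4 (-2.23) stood between PSMB8 and PSMB10. PSMB9 had -1.94 with the peak of PSMB8 included and -1.65 at the peak shared with TAP1 alone. PSMB7 (-0.67), PSMB6 (-0.65) and PSMB5 (-0.59) were among the 8 highest, with only PSMB2 (-0.15), PSMD4 (0.02) and PSMC2 (0.14) above PSMB5. Over overlapping peaks only, PSMB6 had -1.07 and PSMC2 -0.77.

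The differences within the pairs did not depend on the scaling of the libraries, although they did not keep their size per 1000 bp of peak. PSMB8 minus PSMB5 was -1.79 (-2.55 to -1.04), PSMB9 at the TAP1 side minus PSMB6 was -1.0 (-1.74 to -0.26) and PSMB10 minus PSMB7 was -1.37 (-1.96 to -0.78) for *V. cholerae* MVs over *E. coli* MVs. The value of PSMB6 includes a *V. cholerae* MV peak that overlaps none with *E. coli* MVs. Over overlapping peaks only, PSMB6 had -1.07 (-1.78 to -0.38), nearer to PSMB9. The difference within that pair was not computed for overlapping peaks. In H3K4me3 the difference of PSMB10 and PSMB7 had the opposite sign (0.52, 0.32 to 0.72). There the intervals of PSMB8 minus PSMB5 (0.26, -0.01 to 0.52) and of PSMB9 minus PSMB6 (0.15, -0.11 to 0.41) included 0. The 3 immunoproteasome genes were higher in H3K4me3 with *V. cholerae* MVs, but PSMB8 had -0.02 per 1000 bp of peak. Counted in that way, the FAIRE log2 ratios between the MV preparations were -0.77 for PSMB10 and -0.59 for PSMB7. The order was reversed for PSMB9, its PSMB8 peak included (-0.92), and PSMB6 (-1.43). PSMB8 had -0.61, from 68.6 to 44.8 NTC per 1000 bp, beside 53.3 and 37.8 NTC per 1000 bp for PSMB5. The part of peak width in the FAIRE differences was not tested. Across the 23 members with values in both assays the Spearman correlation of the H3K4me3 and FAIRE log2 ratios was -0.68 for *V. cholerae* MVs over *E. coli* MVs, against -0.39 over 5865 genes. For the comparisons with mock it was 0.49 and 0.13, against 0.24 and -0.09. GC content moved with the FAIRE ratio as well, with Spearman values of -0.69 over 23 members and -0.50 over 5881 genes for *V. cholerae* MVs over *E. coli* MVs, and of 0.38 and -0.08 over the members for the comparisons with mock. The part of GC content in the FAIRE differences was not tested.

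Among the other groups, FAIRE was highest with *E. coli* MVs at PSMD8 (268 NTC), which had 95.2 NTC with *V. cholerae* MVs and no peak with mock. PSME2 held 227 NTC with *E. coli* MVs, 82.8 NTC with *V. cholerae* MVs and 8.29 NTC with mock, and PSME1 147, 29.0 and 8.98 NTC. PSME4 held 97.6, 48.0 and 8.98 NTC in the same order, whereas PSME3 (120.4 and 33.9 NTC) and PSMF1 (95 and 48.9 NTC) had no peak with mock. PSMA5 held 179 NTC with *E. coli* MVs, 68.7 NTC with *V. cholerae* MVs and 13.1 NTC with mock, with log2 ratios to mock of 3.77 and 2.39. PSMD3 (3.64 and 2.56) and PSMD2 (3.07 and 1.63) were high among the non-ATPases with *E. coli* MVs and PSMC4 (3.01 and 1.61) among the ATPases, of which PSMC5 (1.54 and 0.58) was lowest. Over overlapping peaks only, the ratio of PSMC5 with *V. cholerae* MVs turned to -1.53 (-2.64 to -0.53). Among the chaperones PSMD9 had 4.77 and 3.69, PSMG1 3.51 and 1.58, PSMG4 3.15 and 0.92 and PSMG2 2.84 and 1.76. Over overlapping peaks only, with *E. coli* MVs PSMD9 had 1.29 (-0.08 to 2.72), PSMG4 1.15 and PSMG2 1.67, while PSMG1 stayed at 3.51. PSMB11 held 50.7, 10.8 and 8.29 NTC although it had no H3K4me3 peak.

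Genes of the proteasome pathway with other symbols were set beside the members. Of 23 such genes, which include further subunits, chaperones, regulators and shuttle factors, 7 were at least 1.5-fold higher than mock in H3K4me3 with *E. coli* MVs, as were 9 with *V. cholerae* MVs, against 42.6% and 53.5% of all genes, and none was lower. Their median log2 ratios were 0.41 and 0.34, and turned negative with the scaling to tags in peaks as for the members. ADRM1, a ubiquitin receptor of the regulatory particle (0.82 and 1.1), and ZFAND2A, a stress-inducible partner of the proteasome (0.84 and 1.1), were highest. SEM1, a small lid subunit (-0.01 and -0.18), and PAAF1, a chaperone of the ATPase ring (0.06 and -0.13), were lowest. Of 12 interferon-inducible genes of antigen presentation, 4 were at least 1.5-fold higher with *E. coli* MVs, as were 7 with *V. cholerae* MVs, against the same shares of all genes, with medians of 0.52 and 0.66, close to those of all genes (0.52 and 0.64). CIITA, the regulator of MHC class II genes (1.88 and 1.96), and TAP2, the partner of TAP1 (1.45 and 1.74), were highest, and ERAP2 (0.02 and -0.18) and PDIA3 (0.14 and 0.27), which trim and load peptides, were lowest.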

How the data were processed

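Labels gave 8 samples, and 6 libraries were used, 1 per treatment and assay. Both input libraries were left out. The labels give the ChIP libraries an antibody, and the FAIRE libraries were taken as such from the files that the labels attach to them. The authors aligned reads to hg19 and called peaks in each library against input with HOMER in its histone mode. In the submitters' processing notes the tools are HOMER 4.7.2, SAMtools 1.3.1 and Bowtie 1.1.2, whereas the methods of the study name Bowtie 2 and add MACS. The deposited headers give at least 4-fold over input and a Poisson p of 0.0001. Each deposited list holds the authors' normalized tag count of a peak, which is a signal scaled to 10000000 tags. Other deposited columns are the authors' tag counts in peak and input, the authors' fold (a ratio to input) and their p-value.

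Whole tags were recovered from the deposited normalized tag counts and the library totals (largest distance from a whole number 0.0721). Gene values were summed with Python 3.11.15 and pandas 2.3.3 over peaks within 1000 bp of any start site. Log2 ratios were taken only at genes with a peak in all 3 libraries of an assay, unless stated, with exact conditional binomial 95% intervals (scipy 1.17.1) that cover counting error only, since copies made by PCR are not independent molecules. Intervals of differences between genes combine those of both genes by a normal approximation. No replicate exists, so no p-value between treatments was computed. A member was counted at 1.5-fold or more, a threshold with no test, beside the share of all genes. GC content was read from the GRCh37 reference over each gene's mock H3K4me3 peaks. Promoter sequences came from a RefSeq table of GRCh38.p14 and were placed on GRCh37 by exact match.

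The members, the role groups and the lists were chosen with earlier results of these data known. Values in full are given for PSMB5 to PSMB10, PSME1 to PSME4 and PSMF1, and in the other groups for no more than 2 members at either end of the ratios to mock. Further genes named beside them were chosen after their values were seen. The intervals were tested on simulated tags drawn from the Poisson model that they assume. That test could not check errors from PCR copies, peak calling or differences between libraries. Alternatives changed the window, the scaling, the fold over input, the start sites and the peaks counted.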

Additional observations from a re-analysis of the deposited data

How the results depend on the processing

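No paired analysis was possible because every treatment was measured in a single library per assay. Scaled to tags in all called peaks, the members' median log2 ratios in H3K4me3 became -0.13 for *E. coli* MVs over mock, -0.22 for *V. cholerae* MVs over mock and -0.074 for *V. cholerae* MVs over *E. coli* MVs, and in FAIRE 0.65, 0.63 and 0.093. The same scaling moved the H3K4me3 ratios of *E. coli* MVs over mock to -0.032 for PSMB8 and -0.040 for PSMB9. In FAIRE it gave PSMB6 -1.14 and PSMB7 -0.82 for *E. coli* MVs over mock, PSMB8 -0.010 and PSMB7 -0.064 for *V. cholerae* MVs over mock, and PSMB6 0.78 and PSMB7 0.76 for *V. cholerae* MVs over *E. coli* MVs. By construction this scaling shifts all genes of a comparison alike. Per 1000 bp of peak the medians to mock were 0.14 and 0.16 in H3K4me3 and 1.84 and 0.87 in FAIRE, that of *V. cholerae* MVs over *E. coli* MVs in FAIRE was -0.92, and PSMB8 had -0.021 in H3K4me3 for *V. cholerae* MVs over *E. coli* MVs.

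Leaving out peaks shared with another gene left 31 members in H3K4me3 and 13 in FAIRE. In H3K4me3 PSMB8, PSMB9 and PSMB10 were not among those left, so their contrast could not be checked in that way. Counting peaks at the outermost start site alone left 14 members in FAIRE, and peaks at 8-fold or more over input left 0, so that setting gave no FAIRE ratio. Of 47 members in H3K4me3, 1 was at least 1.5-fold higher than mock with *E. coli* MVs when scaled to tags in peaks and 4 per 1000 bp (8 in the main setting), and with *V. cholerae* MVs 2 and 6 (10 in the main setting), while 5 of 31 were with either preparation at peaks of a single gene. At least 1.5-fold lower than mock were 5 with *V. cholerae* MVs when scaled to tags in peaks, and 2 with either preparation per 1000 bp (0 in the main setting). For *V. cholerae* MVs over *E. coli* MVs, 1 was higher per 1000 bp or within 2000 bp. Of 24 members in FAIRE, scaling to tags in peaks left 13 higher than mock with *E. coli* MVs (24 in the main setting) and 13 with *V. cholerae* MVs (22), put 3 and 1 below mock, and for *V. cholerae* MVs over *E. coli* MVs left 5 lower (22) and put 4 higher (0). With overlapping peaks only, 2 of 19 were lower than mock with *V. cholerae* MVs. At the outermost start site 14, 13 and 14 of 14 were higher, higher and lower in the 3 FAIRE comparisons, and at peaks of a single gene 13, 12 and 12 of 13. Of 416 values under an alternative, 321 stayed within their interval or within 1.5 times the main count. For the medians, that interval was a binomial one over the ratios of the members, which treats genes as independent and does not cover counting error. The cause of the other shifts was not tested. Members had 52 to 370 H3K4me3 tags and 9 to 56 FAIRE tags with mock where a peak was called, which limits single genes. Ratios at members with a peak in the 2 libraries compared, and of PSMB9 without the peak of PSMB8, were added after seeing the data.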

Other observations

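Of 23 proteasome pathway genes with other symbols, 13 had a FAIRE peak in all 3 libraries, against 35.8% of all genes, with median log2 ratios to mock of 3.34 with *E. coli* MVs, and of 1.73 with *V. cholerae* MVs, against 3.15 and 1.40 over all genes. ADRM1 was highest in both, with 380.3 NTC with *E. coli* MVs, 83.6 NTC with *V. cholerae* MVs and 11.1 NTC with mock. PAAF1 was lowest in both, with 117 NTC with *E. coli* MVs, 53.8 NTC with *V. cholerae* MVs and 38.7 NTC with mock. Of the 12 antigen presentation genes, 6 had a FAIRE peak in all 3 libraries (medians 3.48 and 1.49, beside the same all-gene values). CALR, a chaperone that loads peptides, was highest in both comparisons (4.77 and 2.98). NLRC5, the regulator of MHC class I genes, was lowest with *E. coli* MVs (2.68), and TAPBP, which bridges the transporter and MHC class I, was lowest with *V. cholerae* MVs (0.34). All these ratios shift down by 2.39 and 0.97 when scaled to tags in peaks.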
